A study of Mus musculus with 6 samples.

Results

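Calb1, Trpm6 and Trpv5 are the 3 genes described here, out of 9520 that could be read in this kidney RNA-sequencing series. They encode proteins with which the distal convoluted tubule and the connecting tubule of the kidney take calcium and magnesium back from the urine. They were grouped by that shared role, with earlier results of these data known. A gene was read by summing the deposited rows whose counted intervals lie on its GRCm38 exons, whatever name the row carried, because the row intervals come from another mouse assembly than the reads, so that a row can lie on a gene other than the one it is named for.

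The 6 libraries were made from C57BL/6 mouse kidney RNA at postnatal day 21. The labels place 3 libraries under acute renal failure (ARF), a rapid loss of kidney function, and 3 under healthy. Sample titles call the first group treat and the second control. The names of the deposited count files instead call the first group mutant and the second WT, and the series text calls the second wild. The sample labels name no gene, allele, agent, surgery or cause of the renal failure, so whether the groups differ by genotype, by treatment or by both cannot be told apart, and this bears on every fold change below. The file headers name the counted alignments by public archive run numbers and not by sample, and whether those runs hold the reads of these samples was not tested. Nothing says how many animals a group holds. A p-value here speaks only to the spread among the libraries sequenced, which may be technical. Library totals were 5455886 to 6191479 counts in the ARF-labelled group and 2873370 to 5710010 in the healthy-labelled group.

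The groups are called by their labels because genes known to rise in damaged tubules were lower under the ARF label. Krt8, a keratin of simple epithelia, averaged 854 ± 185 CPM (counts scaled to a common library total) in ARF-labelled and 5368 ± 772 CPM in healthy-labelled libraries (SD, n = 3 each). Clu, the secreted chaperone clusterin, averaged 1352 ± 342 CPM in ARF-labelled and 6923 ± 2287 CPM in healthy-labelled libraries. Every direction given below is a difference between the groups as labelled.

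Calcium is taken up in the late distal convoluted and connecting tubule by passing through cells. The channel TRPV5 lets it in at the urinary side, the buffer calbindin-D28k (Calb1) carries it through the cytoplasm, and pumps and exchangers release it on the blood side. Magnesium enters cells of the distal convoluted tubule through the channel TRPM6, which carries a kinase domain at its end. Vitamin D and parathyroid hormone are known to act on the calcium route in mice, and epidermal growth factor on TRPM6.

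All 3 genes differed between the groups, in opposite directions. Calb1 was 3.95-fold higher in the ARF-labelled libraries, while Trpm6 was 3.34-fold and Trpv5 2.98-fold lower. The counts of each gene did not overlap between the groups once scaled to the library total. Among all 5246 genes tested, 50.0% were called at the same threshold, 25.1% higher and 24.9% lower, and 62.4% had groups that did not overlap. A call or a gap between groups is therefore common in these libraries and does not set these genes apart.

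How much of each gene was counted differed widely. Calb1 (chr4:15881264-15908064, plus strand, GRCm38) was covered by its own row over all of its 4222 exon bases, 783 of them coding. Trpm6 (chr19:18749983-18892511, plus strand) was read through 612 of 6509 exon bases, all coding, which is 9.4% of its exon length. Trpv5 (chr6:41652173-41680769, minus strand) was read through 975 of 3243 exon bases, or 30.1%, in 3 separate rows. The row named Kel covered 403 bases of exons between the first and exon 7, the row named Gm37527 covered 213 bases of exon 8, and the row named Trpv5 covered 359 bases of the last exon.

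**Figure D1:**
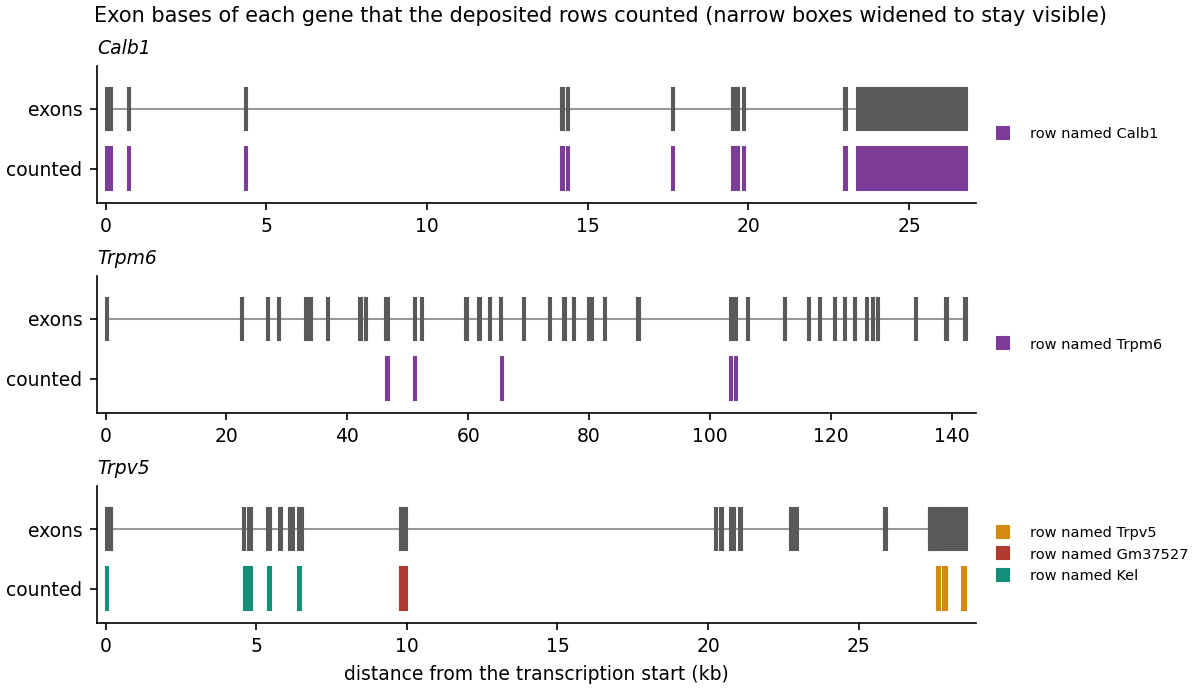
Exons of Calb1, Trpm6 and Trpv5 (grey) and the exon bases counted in the deposited rows (coloured by row name), against distance from the transcription start in kb; very narrow boxes are widened to stay visible. Calb1 is covered throughout, Trpm6 in 612 exon bases and Trpv5 in 975.

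The exons below are examples of the coding sequence under the rows that read the 2 channels, shown because the results rest on stretches of this kind and not on the whole transcript. They are part of the counted bases, other counted exons are not printed, and a count belongs to a whole row, so reads cannot be placed on a single exon. Bases under a counted interval are in capitals, the other bases of the same exon in small letters, all on the coding strand of the GENCODE M21 transcript. They are exons 12 and 17 of 39 in Trpm6 and exons 7 and 8 of 15 in Trpv5. Exon 12 of Trpm6 and exon 8 of Trpv5 were covered whole.
Trpm6 exon 12, chr19:18800935-18801069: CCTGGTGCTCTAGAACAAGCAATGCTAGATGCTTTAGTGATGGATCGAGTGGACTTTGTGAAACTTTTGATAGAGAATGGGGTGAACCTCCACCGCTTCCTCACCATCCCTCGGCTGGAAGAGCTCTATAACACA
Trpm6 exon 17, chr19:18815241-18815469: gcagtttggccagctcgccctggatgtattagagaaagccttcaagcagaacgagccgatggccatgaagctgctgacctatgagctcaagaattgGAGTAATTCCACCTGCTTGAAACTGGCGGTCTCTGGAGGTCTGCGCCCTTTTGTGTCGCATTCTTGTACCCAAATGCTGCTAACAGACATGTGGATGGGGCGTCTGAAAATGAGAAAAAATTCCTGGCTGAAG
Trpv5 exon 7, chr6:41674223-41674369: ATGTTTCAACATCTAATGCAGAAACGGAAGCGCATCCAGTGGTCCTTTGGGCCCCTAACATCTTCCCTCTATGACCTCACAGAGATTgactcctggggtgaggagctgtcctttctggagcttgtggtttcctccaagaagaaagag
Trpv5 exon 8, chr6:41670777-41670989: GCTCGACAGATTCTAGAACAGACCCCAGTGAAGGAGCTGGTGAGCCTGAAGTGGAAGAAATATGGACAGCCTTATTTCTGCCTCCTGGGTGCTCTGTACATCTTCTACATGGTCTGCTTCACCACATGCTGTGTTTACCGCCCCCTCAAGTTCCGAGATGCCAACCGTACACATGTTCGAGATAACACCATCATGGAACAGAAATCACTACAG

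Calbindin-D28k holds calcium in EF-hand loops, runs of 12 codons that open with aspartate and have glycine at codon 6 and glutamate at codon 12. A search of the 783 coding bases of Calb1 for this pattern, with further limits on some codons in between, found 4 loops, 2 of them within a single exon. Those 2 exons, numbers 5 and 7 of 11, are shown with the loop in capitals, since they encode the calcium-holding part of the member that was higher. Both were covered whole by the Calb1 row.
Calb1 exon 5, chr4:15895629-15895685: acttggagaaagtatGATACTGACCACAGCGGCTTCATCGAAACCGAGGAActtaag
Calb1 exon 7, chr4:15900769-15900824: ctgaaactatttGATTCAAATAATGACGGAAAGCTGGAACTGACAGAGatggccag

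Calb1, the calcium buffer, had 3341, 6045 and 4152 CPM in ARF-labelled replicates 1, 2 and 3. In healthy-labelled replicates 1, 2 and 3 it had 1553, 835 and 652 CPM. The lowest ARF-labelled library stood above the highest healthy-labelled library. Means were 4513 ± 1388 CPM in ARF-labelled and 1013 ± 476 CPM in healthy-labelled libraries (SD, n = 3 each), from 77334 and 13629 counts. The log2 fold change was 1.98 (SE 0.35, 95% interval 1.29 to 2.67) with an edgeR quasi-likelihood adjusted p of 0.00194. By mean abundance Calb1 ranked 16 among the genes tested, without correction for length.

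Trpm6, the magnesium channel, had 29.0, 10.9 and 16.3 CPM in ARF-labelled replicates 1, 2 and 3. In healthy-labelled replicates 1, 2 and 3 it had 64.6, 50.5 and 49.6 CPM. The healthy-labelled libraries lay close together and above all ARF-labelled libraries, which spread over 2.67-fold. The ARF-labelled values rest on 158, 60 and 101 counts, and the healthy-labelled values on 369, 145 and 180. Means were 18.7 ± 9.29 CPM in ARF-labelled and 54.9 ± 8.44 CPM in healthy-labelled libraries (SD, n = 3 each). The log2 fold change was -1.74 (SE 0.31, 95% interval -2.34 to -1.14) with an edgeR adjusted p of 0.00192. In bulk kidney RNA, fewer cells of a type and less RNA per cell cannot be told apart, for this gene or the others.

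Trpv5, the calcium channel, had 81.7, 49.2 and 101 CPM in ARF-labelled replicates 1, 2 and 3. In healthy-labelled replicates 1, 2 and 3 it had 338, 143 and 126 CPM. Healthy-labelled replicate 1 stood apart from the other libraries of its group, and the gap between the groups was narrow, at 101 against 126 CPM. Means were 77.4 ± 26.3 CPM in ARF-labelled and 202 ± 118 CPM in healthy-labelled libraries (SD, n = 3 each). The log2 fold change was -1.58 (SE 0.40, 95% interval -2.36 to -0.79) with an edgeR adjusted p of 0.0109. Without healthy-labelled replicate 1 it was -0.97 (edgeR adjusted p = 0.0187), so that library carried much of the size of the difference.

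**Figure D2:**
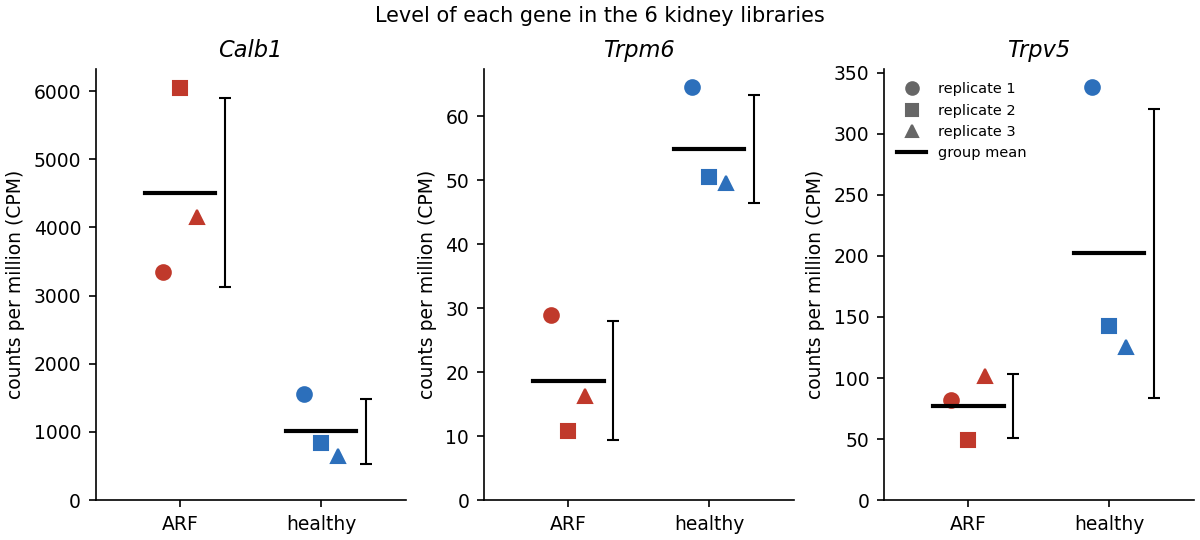
Level of Calb1, Trpm6 and Trpv5 in CPM (linear axes that differ between panels), with 1 point per library, the marker showing the replicate, a thick line at the group mean and a bar of 1 SD over n = 3. ARF-labelled libraries are higher for Calb1 (3341 to 6045 CPM against 652 to 1553 CPM) and lower for Trpm6 and Trpv5.

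The 3 genes did not order the libraries alike. Healthy-labelled replicate 1 had the highest level of its group for all 3 genes. ARF-labelled replicate 2 had the highest Calb1 level of all libraries and the lowest levels of Trpm6 and Trpv5. It was not a shallow library, with 5525366 counts.

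The 3 rows that read Trpv5 are separate measurements of the gene, but not of the same set of its transcripts. The annotated last exon ends at 27.64 kb from the transcription start in a short form and at 28.597 kb in a long form. Stretches of the last-exon row start at 27.613, 27.806 and 28.417 kb, so that row read mostly the long form. The row on the 5′ exons includes 0.0 to 0.074 kb, while a shorter first exon starts at 0.114 kb. The row on the 5′ exons had 35.0, 21.9 and 43.9 CPM in ARF-labelled replicates 1, 2 and 3, and 126, 50.5 and 40.8 CPM in the healthy-labelled ones. These groups overlapped by a small margin, and the log2 fold change of that row was -1.30 (SE 0.41, edgeR adjusted p = 0.0280, over all deposited rows tested). The middle exon had 14.7, 8.33 and 17.1 CPM in ARF-labelled replicates 1, 2 and 3 and 60.9, 25.4 and 20.4 CPM in the healthy-labelled ones. Its log2 fold change was -1.62 (SE 0.42, edgeR adjusted p = 0.0110). The last exon, where 335 of the 359 bases are untranslated, had 32.1, 19.0 and 40.2 CPM in ARF-labelled replicates 1, 2 and 3 and 151, 66.8 and 64.4 CPM in the healthy-labelled ones. Its log2 fold change was -1.81 (SE 0.37, edgeR adjusted p = 0.00348). All 3 rows passed the threshold in the same direction.

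The balance between the last-exon row and the 5′ exon row of Trpv5 also differed between the groups. Counts in the last-exon row over counts in the 5′ exon row gave 0.916, 0.868 and 0.915 in ARF-labelled replicates 1, 2 and 3. The same ratio was 1.19, 1.32 and 1.58 in healthy-labelled replicates 1, 2 and 3. The ratios did not overlap, with a mean log2 difference of -0.59 between ARF-labelled and healthy-labelled libraries (exact two-sided permutation p = 0.10, the smallest that 3 against 3 libraries allow). This comparison was chosen after the row values were seen. Most interval bases of both rows lie outside exons, 2884 of 3243 in the last-exon row and 2370 of 2773 in the 5′ exon row. The part that transcript ends, reads outside exons or RNA quality have in the Trpv5 result was not tested. How often such row ratios part the groups in other genes was not tested either.

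**Figure D3:**
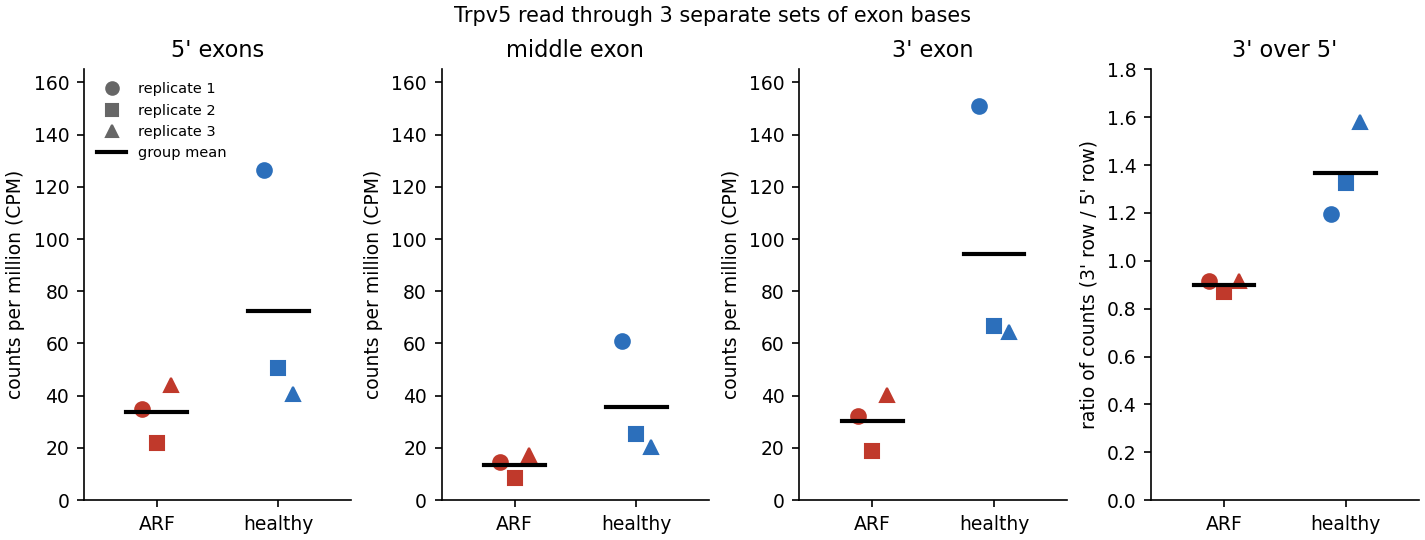
Trpv5 in its 3 rows (CPM, 1 point per library, line at the group mean) and the ratio of last-exon (3′) to 5′ exon counts. Each row is lower on average in ARF-labelled libraries, and the ratio is 0.868 to 0.916 in ARF-labelled and 1.19 to 1.58 in healthy-labelled libraries.

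Most bases of the intervals that read the channels lie outside their exons, 7107 of 7719 bases for Trpm6 and 8588 of 9563 for Trpv5, against 624 of 4846 for Calb1. Reads from outside the exons could therefore enter the counts of the channels. For Trpv5 a small part of the introns could be looked at, because the row named Llcfc1 lies wholly in them. That row, 741 bases long, held 0 counts in each of the 3 ARF-labelled libraries and 1, 1 and 0 counts in healthy-labelled replicates 1, 2 and 3. The exon-bearing rows of Trpv5 held 1345 counts in the ARF-labelled and 2798 in the healthy-labelled libraries. A row of 741 bases cannot stand for the 8588 bases outside exons, so what these added to the Trpv5 counts was not tested. No row lying wholly in introns was found for Trpm6, and its intron reads were not tested.

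Per kilobase of exon counted, the members can be set side by side, with the caution that the intervals of the channels hold mostly bases outside exons. In ARF-labelled libraries Calb1 stood at 1069 ± 329, Trpv5 at 79.4 ± 27.0 and Trpm6 at 30.6 ± 15.2 CPM per kilobase (SD, n = 3). In healthy-labelled libraries Calb1 stood at 239.9 ± 113, Trpv5 at 207 ± 121 and Trpm6 at 89.7 ± 13.8 CPM per kilobase. The order was the same in both groups. Calb1 and Trpv5 lay within their spread of each other in healthy-labelled libraries, and well beyond it in ARF-labelled ones.

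Ratios between members within a library do not depend on how libraries are scaled. There were 40.9, 123 and 41.0 Calb1 counts per Trpv5 count in ARF-labelled replicates 1, 2 and 3. In healthy-labelled replicates 1, 2 and 3 there were 4.59, 5.85 and 5.19. The healthy-labelled ratios lay within a narrow band although the level of each gene differed more than 2-fold among those libraries. On the log2 scale the ratio averaged 5.88 ± 0.91 in ARF-labelled and 2.37 ± 0.17 in healthy-labelled libraries (SD, n = 3 each), a difference of 3.51 (exact two-sided permutation p = 0.10, the smallest possible).

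Calb1 counts per Trpm6 count were 115, 557 and 255 in ARF-labelled replicates 1, 2 and 3 and 24.0, 16.5 and 13.1 in healthy-labelled replicates 1, 2 and 3. These groups did not overlap either, with a log2 difference of 3.86 (exact two-sided permutation p = 0.10). The channels did not part in this way. Trpm6 counts per Trpv5 count were 0.354, 0.221 and 0.161 in ARF-labelled replicates 1, 2 and 3 and 0.191, 0.354 and 0.395 in healthy-labelled replicates 1, 2 and 3. The log2 ratio averaged -2.09 ± 0.57 in ARF-labelled and -1.74 ± 0.57 in healthy-labelled libraries (SD, n = 3 each), and the difference of -0.35 was smaller than either SD (exact two-sided permutation p = 0.60). These were 3 ratios, and with 3 libraries a group none could reach a p under 0.05.

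**Figure D4:**
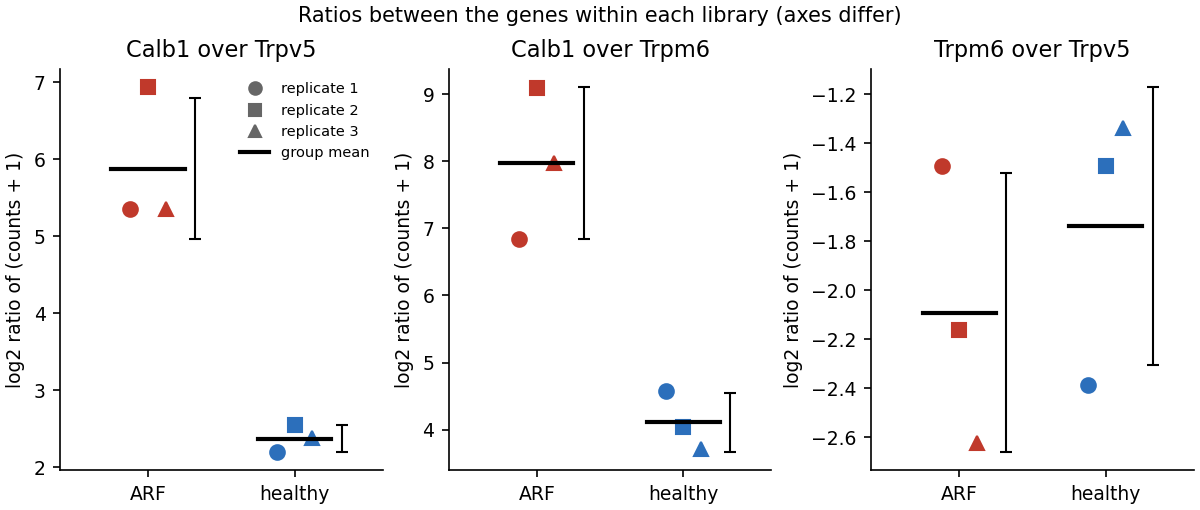
Log2 ratio of counts plus 1 between pairs of the 3 genes within each library, with the group mean (thick line) and 1 SD over n = 3 (bar); axes differ between panels. Both ratios with Calb1 separate the groups, at 5.88 against 2.37 and 7.97 against 4.11 on average, and the ratio of Trpm6 to Trpv5 overlaps.

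The pathway around these genes was described from 6 lists holding 90 genes, of which 32 could be read by position and 27 were tested. Among those 27 genes, 6 had a higher level under the ARF label and 11 a lower one, so 63.0% were called against 50.0% of all genes tested. Their median log2 fold change was -0.01, against 0.01 over all genes. Several defining genes had no usable row and were not analysed here, among them Slc12a3, the salt transporter that marks the distal convoluted tubule, Trpv6, the calcium channel related to Trpv5, and S100g and Slc8a1, a buffer and an exchanger of the calcium route.

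Both genes tested from the list of calcium entry, buffering and extrusion were lower, against 24.9% of all genes. They encode plasma membrane pumps that push calcium out of the cell. Atp2b1, read through 160 exon bases, averaged 64.0 ± 3.44 CPM in ARF-labelled and 112 ± 11.2 CPM in healthy-labelled libraries (log2 fold change -0.98, SE 0.12, edgeR adjusted p = 0.000259). Atp2b4 averaged 50.6 ± 12.8 CPM in ARF-labelled and 81.8 ± 13.5 CPM in healthy-labelled libraries (log2 fold change -0.86, SE 0.19, edgeR adjusted p = 0.00638). In bulk kidney RNA Calb1 thus moved against Trpv5 and these pump genes. Which cells the pump RNA came from was not tested.

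Of 8 magnesium transport genes tested, 2 were higher, 1 was lower and 5 were not called (median log2 fold change 0.14), against 25.1% higher and 24.9% lower among all genes tested. Cnnm1, a member of the CNNM family of magnesium transport proteins, averaged 63.3 ± 11.3 CPM in ARF-labelled and 9.81 ± 1.11 CPM in healthy-labelled libraries (log2 fold change 2.53, SE 0.19, edgeR adjusted p = 2.92e-05). Its relative Cnnm3 averaged 25.2 ± 2.25 CPM in ARF-labelled and 11.6 ± 0.823 CPM in healthy-labelled libraries (log2 fold change 0.95, SE 0.15, also called higher). Slc41a2, a magnesium transporter, averaged 116 ± 18.2 CPM in ARF-labelled and 213 ± 7.89 CPM in healthy-labelled libraries (log2 fold change -1.05, SE 0.13). Cnnm2, the family member known from the basolateral side of the distal convoluted tubule, had a log2 fold change of 0.08 with an SE of 0.20, which was -0.045 without healthy-labelled replicate 2. Slc41a1 had 0.20 (SE 0.17), and the mitochondrial magnesium channel gene Mrs2 had 0.34 (SE 0.14). Mrs2 passed the threshold with scaling by library totals, where the median of all genes was 0.19, and with upper quartile scaling.

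The list of distal convoluted tubule salt transport also holds Egf, which is in the list of hormones and receptors too. Of 5 genes tested in it, 1 was higher, 1 lower and 3 were not called, with the same 25.1% and 24.9% over all genes. Kcnj10, the basolateral potassium channel of that segment, averaged 333 ± 70.7 CPM in ARF-labelled and 23.2 ± 5.02 CPM in healthy-labelled libraries (log2 fold change 3.66, SE 0.22, edgeR adjusted p = 1.07e-05). Cul3, the scaffold of the ubiquitin ligase that removes WNK kinases, was lower by a log2 fold change of -0.53 (SE 0.14, edgeR adjusted p = 0.0125). The call was lost without ARF-labelled replicate 1 (edgeR adjusted p = 0.0535). Egf, which encodes the growth factor that acts on TRPM6, averaged 491 ± 135 CPM in ARF-labelled and 484 ± 82.2 CPM in healthy-labelled libraries. Its log2 fold change was -0.15 (SE 0.21, edgeR adjusted p = 0.561), and 0.021 with scaling by library totals and 0.054 without ARF-labelled replicate 2. Oxsr1, a kinase of the salt transporter, had -0.35 (SE 0.14) and passed the threshold without healthy-labelled replicate 2 (edgeR adjusted p = 0.0482).

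Of 3 thick ascending limb genes tested, 2 were higher and 1 was not called, against 25.1% higher over all genes. Kcnj1, the potassium channel of the apical side, averaged 192 ± 6.67 CPM in ARF-labelled and 12.9 ± 4.96 CPM in healthy-labelled libraries and was read through 67 exon bases. Rragd, a GTPase of lysosomal nutrient sensing that is mutated in a human kidney disease with magnesium wasting, averaged 2009 ± 127 CPM in ARF-labelled and 749.6 ± 106 CPM in healthy-labelled libraries (log2 fold change 1.25, SE 0.14).

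Receptors of hormones that act on these channels, listed together with the growth factor gene Egf, were lower or not called. Of 5 genes tested in that list, 3 were lower, 0 were higher and the other two, Egf and Vdr, were not called, against 24.9% lower over all genes. Pth1r, the parathyroid hormone receptor, averaged 387 ± 88.6 CPM in ARF-labelled and 622 ± 80.2 CPM in healthy-labelled libraries (log2 fold change -0.86, SE 0.18, edgeR adjusted p = 0.00466). Egfr, the epidermal growth factor receptor, averaged 60.2 ± 4.91 CPM in ARF-labelled and 93.3 ± 8.32 CPM in healthy-labelled libraries (log2 fold change -0.81, SE 0.13). The calcitonin receptor gene Calcr averaged 3.26 ± 0.49 CPM in ARF-labelled and 7.23 ± 3.18 CPM in healthy-labelled libraries (log2 fold change -1.36, SE 0.37, edgeR adjusted p = 0.0150). Its call was lost without healthy-labelled replicate 1 (edgeR adjusted p = 0.0640) and without ARF-labelled replicate 2 (edgeR adjusted p = 0.0534). Vdr, the vitamin D receptor, averaged 69.8 ± 13.0 CPM in ARF-labelled and 51.4 ± 7.68 CPM in healthy-labelled libraries (log2 fold change 0.26, SE 0.17, edgeR adjusted p = 0.236) and was read through 54 exon bases. As with the pump genes, which cells the receptor RNA came from was not tested.

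All 5 channel partners tested were called, 4 lower and 1 higher, against 50.0% called over all genes, 24.9% lower and 25.1% higher. Calm2, a calmodulin gene whose product closes TRPV5 when calcium rises, was read through 31 exon bases and was lower by a log2 fold change of -0.85 (SE 0.14). Nipsnap1, whose product is known to bind the related channel TRPV6, had -0.88 (SE 0.15). Phb2, a prohibitin known to hold TRPM6 back, had -0.43 (SE 0.12), and its call was lost without ARF-labelled replicate 1 (edgeR adjusted p = 0.0630) and with scaling by library totals (edgeR adjusted p = 0.0801). Itpr1, the calcium release channel of the endoplasmic reticulum, was higher at 1139 ± 155 CPM in ARF-labelled and 451 ± 13.9 CPM in healthy-labelled libraries (log2 fold change 1.16, SE 0.13).

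**Figure D5:**
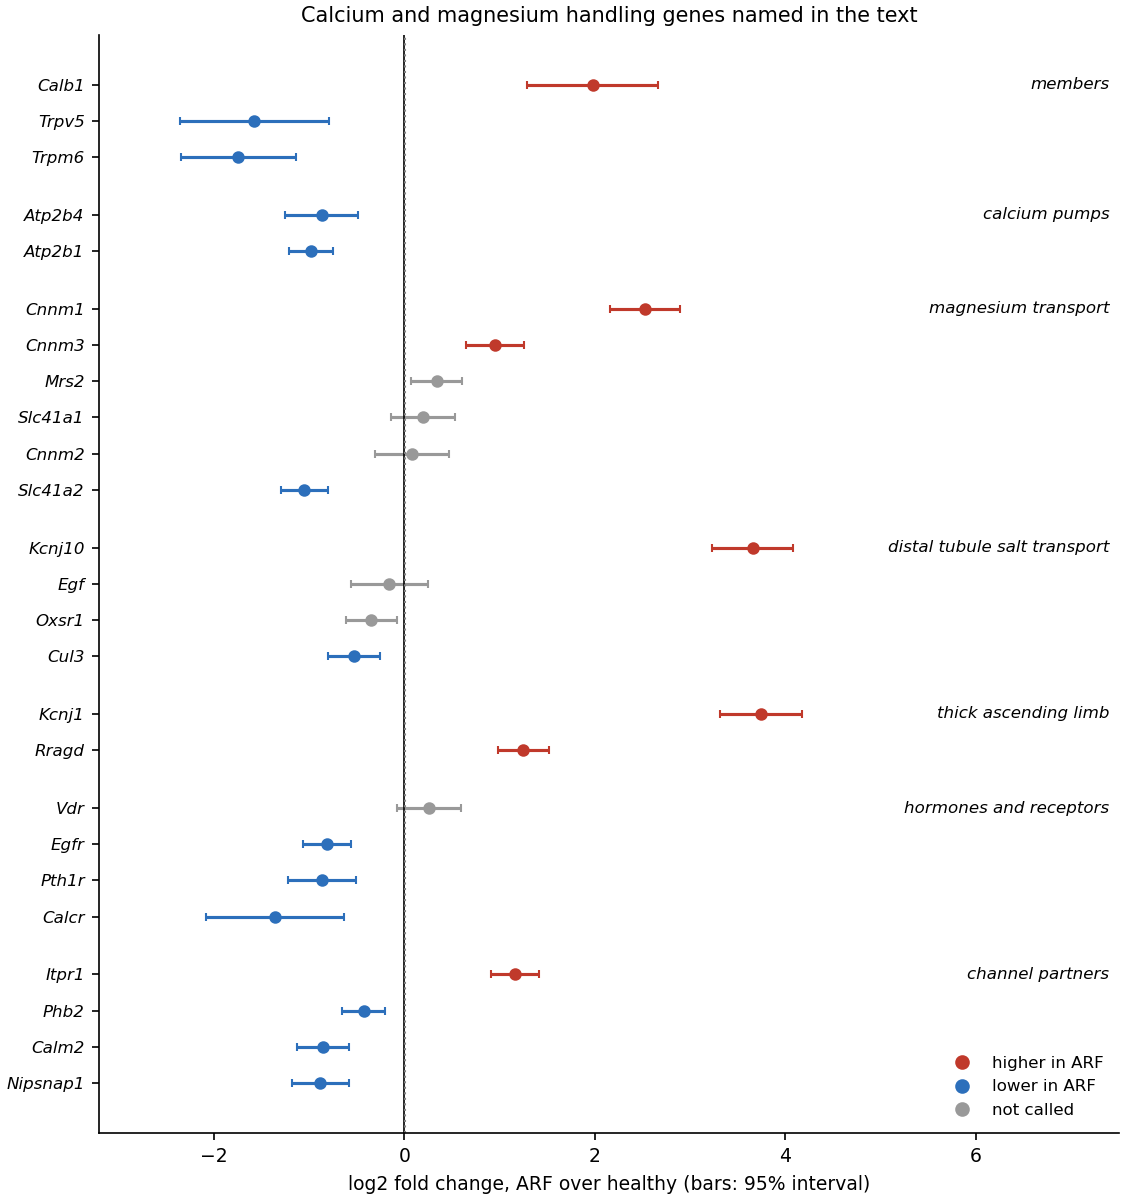
Log2 fold change of the 3 genes and of the tested pathway genes named in the text, ARF-labelled over healthy-labelled, with bars of the 95% interval and a dotted line at the median of all genes; red is higher, blue lower and grey not called, and a gene in 2 lists is drawn once. Calb1 lies at 1.98 with Kcnj1, Kcnj10 and Cnnm1 beyond it, and Trpm6 and Trpv5 lie at -1.74 and -1.58.

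Marker genes of neighbouring and unrelated cells moved between the groups as well, in counts to be read against the 25.1% of all genes tested that were higher and the 24.9% that were lower. All 6 connecting tubule and principal cell genes tested were higher, and their summed level was 9744 to 11549 CPM in ARF-labelled and 3371 to 4094 CPM in healthy-labelled libraries. Most of that sum was Aqp3, at 8297 ± 945 CPM in ARF-labelled and 3224 ± 261 CPM in healthy-labelled libraries. Kcnj1, counted above with the thick ascending limb genes, is also among these 6. Scnn1g, a subunit of the epithelial sodium channel that shares the connecting tubule with Calb1 and Trpv5, had a log2 fold change of 2.67 (SE 0.15). All 7 intercalated cell genes tested were higher (summed 4736 to 5789 CPM in ARF-labelled and 1119 to 1375 CPM in healthy-labelled libraries), among them the anion exchanger Slc4a1 (log2 fold change 2.86, SE 0.27). Trpv5 and Trpm6 moved against these lists, and Calb1 with them.

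Of 8 proximal tubule genes tested 6 were lower, against 24.9% of all genes, with sums of 3407 to 4983 CPM in ARF-labelled and 7109 to 11139 CPM in healthy-labelled libraries. Among them was the phosphate transporter Slc34a1 (log2 fold change -2.62, SE 0.20). All 6 macrophage and neutrophil genes tested were lower, including the collagenase Mmp8, with sums of 27.8 to 32.8 CPM in ARF-labelled and 89.7 to 223 CPM in healthy-labelled libraries. Of 4 endothelial genes 3 were lower, among them Pecam1 (sums 119 to 127 CPM in ARF-labelled and 163 to 298 CPM in healthy-labelled libraries), and both erythroid genes tested were lower (28.8 to 78.9 CPM in ARF-labelled and 163 to 789 CPM in healthy-labelled libraries). Of 2 podocyte genes tested 1 was higher and 1 lower. The higher was Thsd7a, at 423 ± 65.6 CPM in ARF-labelled and 267 ± 59.8 CPM in healthy-labelled libraries. Synpo was lower, at 4.11 ± 0.602 CPM in ARF-labelled and 19.2 ± 2.79 CPM in healthy-labelled libraries. The sums of that list were thus mostly Thsd7a (352 to 475 CPM in ARF-labelled and 227 to 351 CPM in healthy-labelled libraries). Healthy-labelled replicate 1, which had the highest Trpv5 level, had the lowest sums of its group for the macrophage and neutrophil, endothelial and erythroid lists. The part of cell makeup in the results of the 3 genes was not tested.

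The genes whose pattern over the 6 libraries was most like each member were found by the root mean square difference in log2 CPM, after centring each gene on its own mean. Nearest to Calb1 were 4930452B06Rik at a difference of 0.18, Kcnq1, a potassium channel gene, at 0.24 and Sort1, which encodes the sorting receptor sortilin, at 0.25. The nearest, 4930452B06Rik, had low levels, at 7.18 CPM on average in ARF-labelled and 1.65 CPM in healthy-labelled libraries. Kcnq1 averaged 308 ± 28.7 CPM in ARF-labelled and 76.96 ± 22.9 CPM in healthy-labelled libraries, and Sort1 averaged 1018 ± 74.0 CPM in ARF-labelled and 218 ± 63.0 CPM in healthy-labelled libraries. Nearest to Trpm6 were Gm10845 at 0.24, Ezr, which encodes the membrane linker ezrin, at 0.26 and Jmjd1c, related to histone demethylases, at 0.27. Ezr averaged 68.3 ± 16.0 CPM in ARF-labelled and 218 ± 26.4 CPM in healthy-labelled libraries. The levels of Gm10845 were low, at 0.64 CPM on average in ARF-labelled and 2.46 CPM in healthy-labelled libraries. Jmjd1c, read through 91 exon bases, averaged 3.45 CPM in ARF-labelled and 14.3 CPM in healthy-labelled libraries. Nearest to Trpv5 were Cwh43 at 0.31, Calcr at 0.32 and Cybrd1, an iron reductase gene, at 0.35, all under 25 CPM on average in both groups. The difference between Trpm6 and Trpv5 themselves was 0.49, and that between Calb1 and Trpv5 was 1.83.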

How the data were processed

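Kidney RNA was made into libraries with an Illumina TruSeq kit, per the labels' protocols. The authors deposited raw fragment counts per row for each library. Per the file headers, featureCounts 2.0.1 summed exon fragments by gene name, took only pairs with both ends aligned and set no strand option. Bowtie 0.12.2 and mm9 appear in the submitters' processing notes; the tool that aligned the counted reads is not stated there or in the headers.

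Each row was given to the GENCODE M21 basic gene (GRCm38) whose exons took a share of 0.9 or more of the exon bases it overlaps, with a minimum of 25 bases, using bedtools 2.31.1, and rows were summed per gene. This kept 12401 rows, 9520 genes and 63.0% of counts. Groups were compared with edgeR 4.0.16 (R 4.3.3) by its quasi-likelihood test with TMM, filterByExpr and library totals over all rows, called at a two-sided p under 0.05 after Benjamini-Hochberg adjustment over 5246 genes, and the script was tested on simulated data. An SE is the log2 fold change divided by the root of F. Ratios used counts plus 1. CPM in the text are unscaled by TMM. Genes named are the members, tested genes of the lists, the 3 genes nearest each member, and Krt8 and Clu as a check of the labels; some genes of the lists are counted but not reported here by name. The members and lists were chosen with earlier results of these data known. Alternatives were DESeq2 1.42.0, other scalings, filters, exon limits, single rows, a replicate block and each library left out.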

Additional observations from a re-analysis of the deposited data

How the results depend on the processing

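Calb1, Trpm6 and Trpv5 kept their direction and passed the threshold in all 16, 16 and 18 alternative fits. Their log2 fold changes ranged from 1.71 to 2.43 for Calb1, -2.17 to -1.47 for Trpm6 and -1.86 to -0.97 for Trpv5, with adjusted p up to 0.00961, 0.00825 and 0.0405; these extremes came from fits that left out 1 library each. The ratios were also taken with 0.5 added to counts in place of 1 and with each library left out. The 2 ratios with Calb1 kept their sign in each of these (2.98 to 3.77 over Trpv5, 3.30 to 4.43 over Trpm6). That of Trpm6 over Trpv5 ranged from -0.68 to -0.09. Tested row by row, 2578 deposited rows were higher and 2467 lower, out of 10919 rows in place of 5246 genes, against 1319 and 1305 genes. Scaling by library totals raised the median of all genes to 0.19 and gave 1749 higher and 1013 lower genes, so 63.3% of calls were higher, against 50.3% with TMM. For the 37 other genes followed through the alternatives, 535 of 546 values stayed on the same side. In 5 a call was lost, in 3 a call was gained, and in 3 the sign turned for a gene not called: Egf (0.021 with library totals, and -0.304 to 0.054 with 1 library left out, 0.054 being without ARF-labelled replicate 2) and Cnnm2 (-0.045 to 0.155 with 1 library left out, -0.045 being without healthy-labelled replicate 2). Deviations from the group means correlated at -0.07, -0.22 and -0.29 between same-numbered libraries. Between libraries of different number they correlated at -0.06 to 0.24. Such deviations cancel within a group of 3, so whether replicate numbers pair the libraries cannot be told. The replicate block gave 1135 higher and 1153 lower genes, with 2.05 for Calb1, -1.80 for Trpm6 and -1.48 for Trpv5. The SEs of these were 0.35, 0.21 and 0.31 with the block, against 0.35, 0.31 and 0.40 without it. For the ratios the block leaves the differences of 3.51, 3.86 and -0.35 the same by construction, so it is no check on their size or sign. With 3 pairs no exact p below 0.25 is possible. Depth limits Trpm6 most, at 60 counts in the lowest library.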
